A study of Mus musculus with 2 samples.

Results

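Transcript signals of 62 mouse genes of the mitochondrial ribosome, protein import and related mitochondrial functions were compared between an ES sample of day 0 and an EB sample of day 4. The genes were chosen by the start of their symbols (Mrpl, Mrps, Timm, Tomm, Tufm, Gfm, Mfn, Opa1, Dnm1l, Phb, Chchd, Pmpc, Letm and others), among 8102 genes named on the array. Both samples were mouse RNA, each hybridised to 1 bead array of a shared chip. The labels name the samples ES and EB, abbreviations that commonly mean embryonic stem cells and embryoid bodies (clusters of differentiating stem cells). No strain, cell line, feeder layer, culture medium or treatment is given in the labels. With 1 sample per group no test, p-value or SD across samples could be had, and the cell state cannot be told apart from the culture or the place on the chip. In bulk RNA, moreover, fewer cells of a type and less RNA per cell cannot be told apart.

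Mitochondria carry a small genome of their own, which encodes a few subunits of the respiratory chain, and a dedicated ribosome translates its messages. All proteins of that mitochondrial ribosome (the mitoribosome) are encoded in the nucleus, made in the cytosol and imported. Import runs through a translocase of the outer membrane (TOM) and translocases of the inner membrane (TIM), and a processing peptidase then removes the targeting sequence. Mitochondria are known to change in shape and use as pluripotent cells differentiate.

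The labelled cell states were checked on their markers. Of 9 ES cell markers above the signal floor, the dimmest level taken as measured (a normalized signal of 230), 8 were lower in EB by at least 2-fold, with Nanog at 14530 in ES and 2760 in EB. Of 4 early differentiation markers above the floor Lhx1, Eomes and Otx2 were higher by more than 2-fold, and Gata4, under the floor in ES, by at least 1.97-fold. Of 7 feeder fibroblast markers named on the array 5, among them Col1a2, Col3a1 and Dcn, were under the floor in both arrays, while Col1a1 was 2.58-fold lower and Fbln2 6.04-fold higher in EB. The part of such cells in the values below was not tested.

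Of the 62 genes 51 lay above the floor, each of them in both arrays, and 11 lay under it in both. A median of 35 beads stood behind each of their signals in either array. The typical difference between the arrays was small. The median log2 difference, EB minus ES, was 0.09 over the 51 genes, against 0.06 over all 3867 named genes above the floor, and 32 of the 51 differences were positive (62.7%), against 55.3% of all named genes. By a 2-fold rule (an absolute log2 difference of at least 1) 1 gene was higher in EB, Timm21, and 0 were lower, where 3.72% of all named genes were higher and 5.35% lower. By a 1.5-fold rule 6 were higher (11.8%) and 0 lower, against 12.4% and 12.0% of all named genes. Some of the named genes were above the floor in 1 array only, unlike the 51. Over the 3313 named genes above it in both arrays 11.3% were higher and 9.96% lower by 1.5-fold, and 7.15% passed 2-fold in either direction. The share on the higher side was near that of all named genes in these values, but not after centring. After all differences were centred on the median of the named genes, 3 of the 51 were higher by 1.5-fold and 0 lower, against 10.5% and 14.0% of all named genes. The differences of the 51 genes had a standard deviation of 0.35 across genes, against 0.65 over all named genes and 0.59 over those above the floor in both arrays. Among genes with a mean signal of at least 1000 it was 0.36 over 40 of these genes and 0.62 over all 1544. More than 2 bead-level standard errors separated the arrays for 33 of the 51 genes (64.7%), against 68.3% of all named genes, and this error reflects the beads of a single array, not the variation between cultures.

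**Figure D1:**
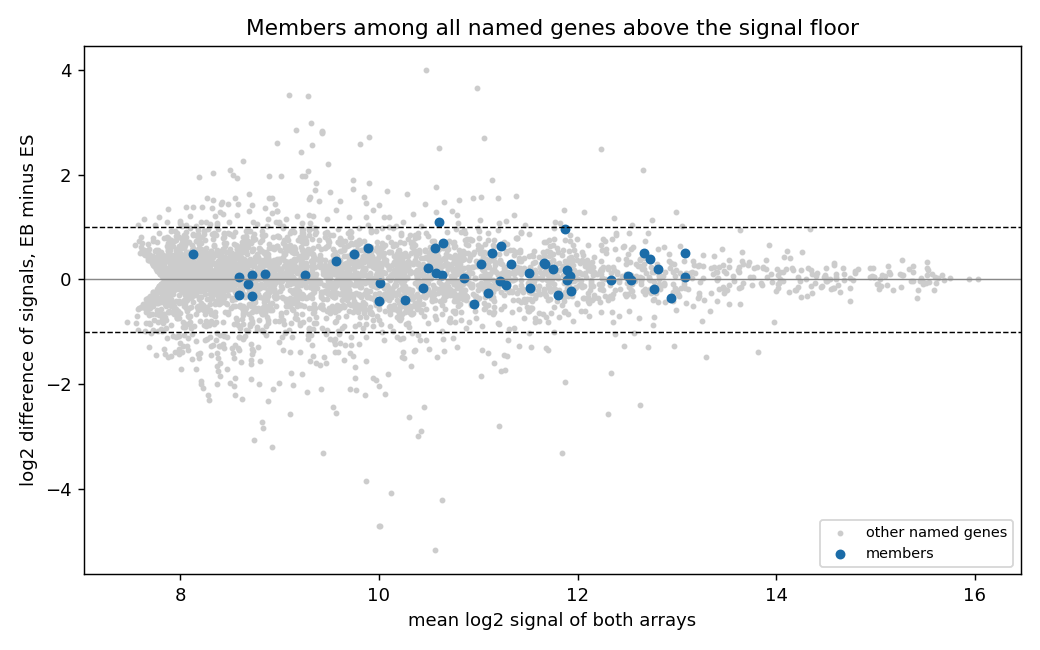
Log2 difference of normalized signals (EB minus ES, vertical axis) against the mean log2 signal of both arrays (horizontal axis) for all 3867 named genes above the signal floor. Blue points are the 51 mitochondrial ribosome, import and related genes, grey points all others, and dashed lines mark 2-fold. The blue points lie between -0.47 and 1.11, inside most of the spread of the grey ones.

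By its brightest probe the protein import gene Timm21 had the largest difference of the 51 genes. It encodes a subunit of the inner membrane translocase TIM23 that contacts the outer membrane complex and takes part in the assembly of the respiratory chain. Its brightest probe (identifier scl067105.1_68-S) had a normalized signal of 1062 in ES and 2285 in EB. The EB signal was 2.15-fold higher (log2 difference of 1.11, bead-level standard error of 0.07). Timm21 had 3 probes, all of them brighter in EB. The middle probe had 593 in ES and 1074 in EB (log2 difference of 0.86), and the dimmest 268 and 394 (0.56). Their order of size followed their brightness, and the mean of the 3 probes (0.84) did not pass the 2-fold rule and was smaller than the difference of Mrps21 (0.97). With the series value table Opa1 (1.47) exceeded Timm21 (1.26).

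Timm10b encodes a small Tim protein of the TIM22 translocase, which inserts carrier proteins into the inner membrane. Its signal was 769 in ES and 1165 in EB, 1.52-fold higher (log2 difference of 0.60, bead-level standard error of 0.09). The small intermembrane space chaperones Timm9 (2943 in ES, 3630 in EB) and Timm8b (6685 and 7703) were 1.23-fold and 1.15-fold higher, under the 1.5-fold rule. Pmpca, the alpha subunit of the processing peptidase, gave nearly equal signals (2416 and 2368), with a log2 difference of -0.03 by its brighter probe and 0.15 by the dimmer. In this inner membrane import and processing group 4 of the 5 genes above the floor had positive differences, with a median of 0.30. Timm23, a subunit of the TIM23 complex, and Timm29 had signals under the floor in both arrays and were not compared.

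The outer membrane genes had a lower median difference than the inner membrane group, a contrast that was not tested. Tomm5, a small subunit of the TOM complex, had 5960 in ES and 7785 in EB (log2 difference of 0.39, bead-level standard error of 0.09). Tomm6, another small subunit, had 673 and 862 (0.36, error 0.08). Tomm7 (5707 and 5955) and the import channel Tomm40 (409 and 434) differed by 0.06 and 0.09, less than their bead-level standard errors of 0.09 and 0.16. Tomm22, which organises the complex, gave 0.04, and the receptor Tomm70a -0.09. Of these 6 genes 0 passed the 1.5-fold rule, and their median was 0.07. With only genes of a mean signal of at least 1000 the medians were close, 0.22 for the outer membrane group and 0.25 for the inner membrane group. The receptor Tomm20 and Samm50, which inserts barrel proteins into the outer membrane, were under the floor in both arrays.

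**Figure D2:**
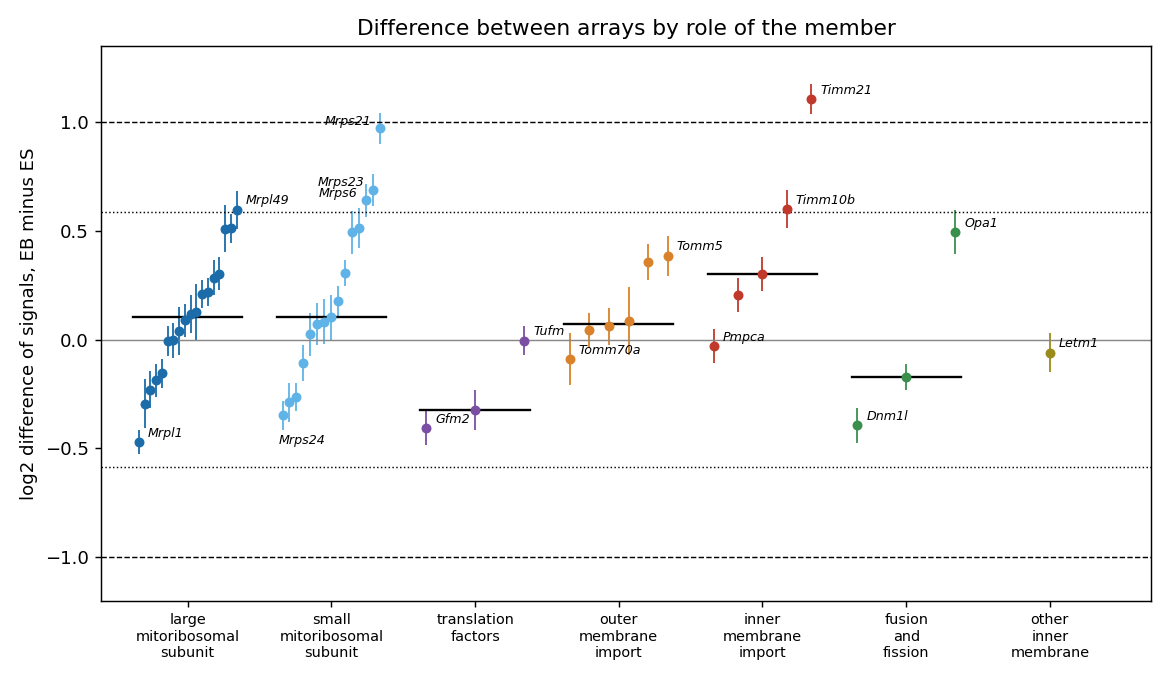
Log2 difference of normalized signals (EB minus ES, vertical axis) for the 51 genes above the signal floor, grouped by role along the horizontal axis. Points are genes, error bars bead-level standard errors, black bars medians of groups with at least 3 genes, dotted lines 1.5-fold and dashed lines 2-fold. Timm21 (1.11) lies past the upper dashed line, no gene lies under the lower dotted line, and the 3 translation factors lie between -0.41 and 0.

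Genes with mitoribosomal symbols (Mrpl and Mrps, counted by symbol alone) made up most of the set. Of these 35 genes 33 were above the floor, with a median log2 difference of 0.10 and 22 positive differences. Genes of both subunits had a median near 0.10, with differences from -0.47 to 0.60 over 18 genes of the large subunit and from -0.35 to 0.97 over 15 of the small subunit. Whether the subunits differ in spread was not tested.

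In the small subunit 3 genes were higher by the 1.5-fold rule. Mrps21 (identifier scl066292.2_43-S), a protein of the family of bacterial S21, had 2681 in ES and 5258 in EB, higher in EB (log2 difference of 0.97, bead-level standard error of 0.07). Without quantile normalization its difference was 1.01, past the 2-fold rule. Mrps23 had 1258 in ES and 2029 in EB (1.61-fold), and Mrps6, of the family of bacterial S6, 1921 and 2993 (1.56-fold). Mrps17 (1887 and 2693) and Mrps11 (727 and 1024) followed at 1.43-fold and 1.41-fold. Near-equal signals were given by Mrps18b (1839 and 1870) and Mrps33 (3798 and 3992). On the other side Mrps24 had 8892 in ES and 6983 in EB, 1.27-fold lower (log2 difference of -0.35, error 0.07). Mrps5 gave -0.29 and Mrps10 -0.26.

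In the large subunit Mrpl49 alone passed the 1.5-fold rule, with 1236 in ES and 1870 in EB (1.51-fold, log2 difference of 0.60, error 0.09). Mrpl12, the stalk protein that contacts translation factors, had 5463 and 7791, and Mrpl23 7261 and 10345. Both were 1.43-fold and 1.42-fold higher, respectively. Signals were nearly equal for Mrpl51 (5976 and 5960), Mrpl33 (3824 and 3805) and Mrpl17 (8578 and 8824). Mrpl1, of the family of bacterial L1, had the lowest difference of the 51 genes by its brighter probe, a rank it lost to Dnm1l (-0.39) with the mean over probes and to Mtif3 (-0.57) with the series value table. Its signal was 2347 in ES and 1692 in EB, 1.39-fold lower (log2 difference of -0.47, error 0.06), and its dimmer probe, with an EB signal under the floor, gave -0.15, for a mean of -0.31. Mrpl35 gave -0.29 (-0.56 with the series value table) and Mrpl42 -0.23. Mrps36 and Mrpl32 were under the floor in both arrays. Some genes of the same ribosome thus differed in opposite directions by more than their bead-level errors. Those errors leave out the variation between cultures, so opposite changes between the cell states were not tested.

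**Figure D3:**
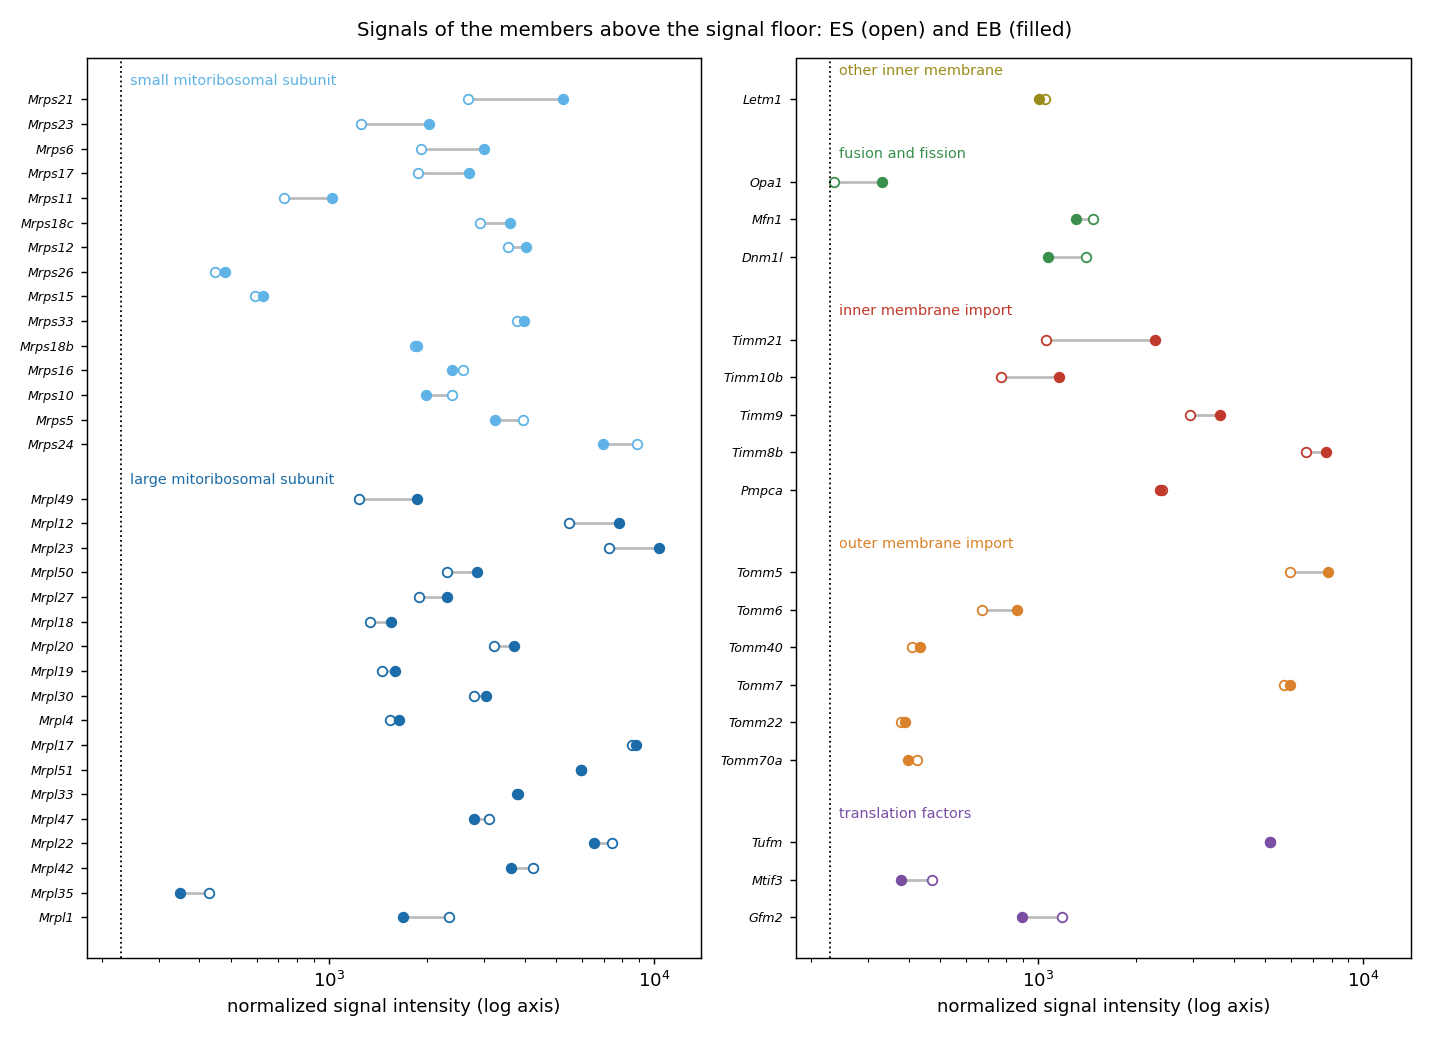
Normalized signal intensity (horizontal log axis) of each of the 51 genes above the floor in ES (open circles) and EB (filled circles), by role and ordered by difference. The dotted line is the signal floor of 230. Lines join the signals of 1 gene; positions of different genes come from different probes and are not comparable. In the small subunit Mrps21 runs from 2681 to 5258 and Mrps24 from 8892 down to 6983.

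Of the translation factors that serve the mitoribosome 3 were above the floor, and Gfm2 and Mtif3 were lower in EB. Gfm2, which splits the ribosome after termination, had 1183 in ES and 892 in EB, 1.33-fold lower (log2 difference of -0.41, bead-level standard error of 0.08), while its dimmer probe, below the floor in ES and EB, brought the mean of the probes to -0.07. Mtif3, an initiation factor, had 473 and 378 (-0.32, error 0.09), and the series value table gave -0.57. Tufm, the elongation factor that brings aminoacyl-tRNA, had 5187 and 5170, a difference under its bead-level error whose sign turned without quantile normalization (0.07). The other initiation factor, Mtif2, was under the floor in both arrays. Tfb2m, which opens the mitochondrial promoter for transcription, was also under the floor, and it was the only gene of mitochondrial DNA transcription and replication among the 62.

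Of the genes of mitochondrial shape Dnm1l and Mfn1 were lower in EB, and the probes of Opa1 disagreed. Dnm1l, the GTPase that divides mitochondria, had 1410 in ES and 1073 in EB, 1.31-fold lower (log2 difference of -0.39, error 0.08). Mfn1, which fuses outer membranes, had 1478 and 1311 (-0.17, error 0.06). Opa1, which fuses inner membranes, had 236 in ES and 332 in EB by its brighter probe (0.50, error 0.10), but its other probe had 236 and 201 (-0.23, error 0.17), with the EB signal under the floor. The probes of Opa1 thus disagreed in sign, and both lay near the floor. With the series value table the brighter probe gave 1.47, and the mean of both probes was 0.13. Letm1, an ion exchanger of the inner membrane, had 1053 and 1011. Phb, a prohibitin, Chchd2 and Letm2 were under the floor in both arrays.

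Probe choice set a limit on these sizes. Of the 62 genes 10 had more than 1 probe, and in 4 of them at least 2 probes were above the floor. Of these 4, Timm21 and Mrpl1 kept their sign between the brightest probe and the next, and Opa1 and Pmpca did not. Over 446 named genes with such probes the log2 differences of the 2 brightest probes departed from each other with a standard deviation of 0.39. Each such pair sets a brighter probe against a dimmer one. The differences of 37 of the 51 genes were smaller than that standard deviation. The same share was not counted over all named genes, but their quartiles, -0.26 and 0.35, also lay inside it. Small differences were thus not particular to the 51 genes.

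The promoters of these genes were searched for letters bound by factors known to act on nuclear genes for mitochondria, namely NRF1 (GCGC, any 2 bases, GCGC), the ETS family with GABP (CCGGAAG) and YY1 (AAGATGGCG), on both strands. RefSeq windows of GRCm38.p6, from 250 bases before to 50 after the gene start, were found for 55 of the 62 genes (57 windows). The ETS letters were in 25 of the 57 windows (43.9%), against 18.4% of 4069 windows of named genes above the floor and 8.86% of all 32851 windows. In 17 of the 25 (68.0%) a match began within 50 bases of the start, near the 63.4% among windows of named genes above the floor that hold the letters. The NRF1 letters were in 11 (19.3%), against 13.7% and 6.23%, and the YY1 letters in 4 (7.02%), against 3.22% and 1.40%. These shares count windows, and the comparison is not like for like. The 57 windows include those of genes under the floor, while the 4069 windows belong to 3107 genes above it. Median GC content was 58.7% in the windows of the 55 genes and 61.3% in those of named genes above the floor. A match is a description of letters and does not show a bound site. The median log2 difference was 0.04 over the 22 genes above the floor with the ETS letters and 0.16 over the 24 without them. It was 0.16 over the 8 genes with the NRF1 letters and 0.06 over the 38 without. The 4 genes with the YY1 letters were Mrpl35, Mrpl42, Mrps24 and Mrps11, with differences of -0.29, -0.23, -0.35 and 0.49.

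The windows of the 3 genes with the highest and the 3 with the lowest differences among those above the floor with 1 window are printed here. The letters can thus be read beside the values. Timm21 had no window and Dnm1l had more than 1, so neither is shown. Capitals mark matches, the ETS letters appearing as CTTCCGG where they lie on the other strand.
Mrps21, chr3:95871465-95871764, minus strand: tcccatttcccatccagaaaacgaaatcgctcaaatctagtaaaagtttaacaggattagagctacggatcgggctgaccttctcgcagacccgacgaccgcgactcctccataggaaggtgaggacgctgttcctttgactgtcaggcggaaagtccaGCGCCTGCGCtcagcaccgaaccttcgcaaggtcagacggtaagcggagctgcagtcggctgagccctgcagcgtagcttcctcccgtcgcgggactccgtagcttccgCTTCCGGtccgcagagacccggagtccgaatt
Mrps23, chr11:88204138-88204437, plus strand: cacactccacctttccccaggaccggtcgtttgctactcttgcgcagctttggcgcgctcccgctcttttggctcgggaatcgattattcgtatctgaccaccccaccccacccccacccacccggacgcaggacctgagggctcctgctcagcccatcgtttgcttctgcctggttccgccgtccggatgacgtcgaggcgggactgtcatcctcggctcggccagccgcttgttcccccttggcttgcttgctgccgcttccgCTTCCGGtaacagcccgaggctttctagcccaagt
Mrps6, chr16:92058086-92058385, plus strand: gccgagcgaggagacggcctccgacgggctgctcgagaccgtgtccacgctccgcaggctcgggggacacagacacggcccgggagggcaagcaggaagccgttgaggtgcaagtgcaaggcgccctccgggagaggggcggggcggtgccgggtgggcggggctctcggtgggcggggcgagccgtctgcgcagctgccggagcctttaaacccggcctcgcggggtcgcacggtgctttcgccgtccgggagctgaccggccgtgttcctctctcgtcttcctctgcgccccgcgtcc
Mrpl1, chr5:96209865-96210164, plus strand: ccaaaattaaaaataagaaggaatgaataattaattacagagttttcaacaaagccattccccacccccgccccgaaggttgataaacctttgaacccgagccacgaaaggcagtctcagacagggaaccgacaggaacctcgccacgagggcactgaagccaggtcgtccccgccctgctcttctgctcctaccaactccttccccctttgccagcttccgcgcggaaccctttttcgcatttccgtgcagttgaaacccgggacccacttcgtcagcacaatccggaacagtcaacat
Gfm2, chr13:97137687-97137986, plus strand: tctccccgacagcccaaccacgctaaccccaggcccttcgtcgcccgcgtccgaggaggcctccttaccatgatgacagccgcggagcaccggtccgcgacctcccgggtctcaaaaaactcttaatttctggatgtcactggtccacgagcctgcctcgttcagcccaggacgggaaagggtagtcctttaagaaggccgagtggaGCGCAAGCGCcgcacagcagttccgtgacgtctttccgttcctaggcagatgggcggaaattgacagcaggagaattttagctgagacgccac
Mrps24, chr11:5707652-5707951, minus strand: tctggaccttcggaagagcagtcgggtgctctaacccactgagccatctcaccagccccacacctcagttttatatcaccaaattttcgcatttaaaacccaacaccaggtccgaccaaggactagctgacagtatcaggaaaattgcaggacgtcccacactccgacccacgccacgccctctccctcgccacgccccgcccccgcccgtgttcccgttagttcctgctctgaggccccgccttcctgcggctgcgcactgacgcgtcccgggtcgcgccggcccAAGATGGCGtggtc
Mrps21 holds both the NRF1 letters (from position -91 relative to the gene start) and the ETS letters (from 19), Mrps23 the ETS letters (from 16), and Mrps6 none of the 3 motifs. A relation between motifs and differences was not tested. On the lower side Gfm2 holds the NRF1 letters (from -43), Mrps24 the YY1 letters (from 37) and Mrpl1 none.

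Of the regulators themselves few could be compared. Gabpa, the DNA-binding subunit of GABP, had 534 in ES and 297 in EB, 1.80-fold lower (log2 difference of -0.85, bead-level standard error of 0.11), and its partner Gabpb1 had 961 and 756 (-0.34, error 0.08). Ppargc1b, a coactivator of mitochondrial genes, had 316 in EB and a signal under the floor in ES, at least 1.38-fold higher. Yy1 and Myc were under the floor in both arrays, and Nrf1 is not analysed here. Whether Gabpa bears on the genes with ETS letters was not tested.

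Other genes of the same functions, taken from lists of mitochondrial genes outside the symbol rule, stood as follows. Of 9 mitochondrial aminoacyl-tRNA synthetase and related genes above the floor 6 had negative differences (median -0.07) and Cars2, which charges the cysteine tRNA, was 1.53-fold lower. Of 5 other mitoribosome and translation genes 4 were negative (median -0.06), from -0.29 for Slirp, an RNA-binding protein, to 0.08 for Dap3, itself a small subunit protein. Of 7 import partners and chaperones 4 were negative (median -0.15). Among them Hspa9, the Hsp70 of the import motor, had 7213 in ES and 4775 in EB, 1.51-fold lower, and Mipep, a peptidase that trims imported proteins, was 1.46-fold higher. Of the chaperonin pair Hspd1 gave -0.15 and Hspe1 0.36. Of 7 genes that maintain mitochondrial DNA and RNA 5 were positive (median 0.16), from -0.81 for the nucleotide carrier Slc25a36 to 0.56 for the DNA ligase Lig3. Of 7 other genes of mitochondrial dynamics and mitophagy 4 were negative (median -0.08), from -0.35 for Trak1 to 0.37 for Mtfr1l. The protease list had 1 gene above the floor, Afg3l1 (-0.30). In these 6 lists 0 genes passed the 2-fold rule in either direction, as did 0 of 31 nuclear genes of oxidative phosphorylation (median 0.13, 21 positive). Of 69 cytosolic ribosomal protein genes (median 0.04, 38 positive) Rps4l, 3.01-fold lower, passed it.

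**Figure D4:**
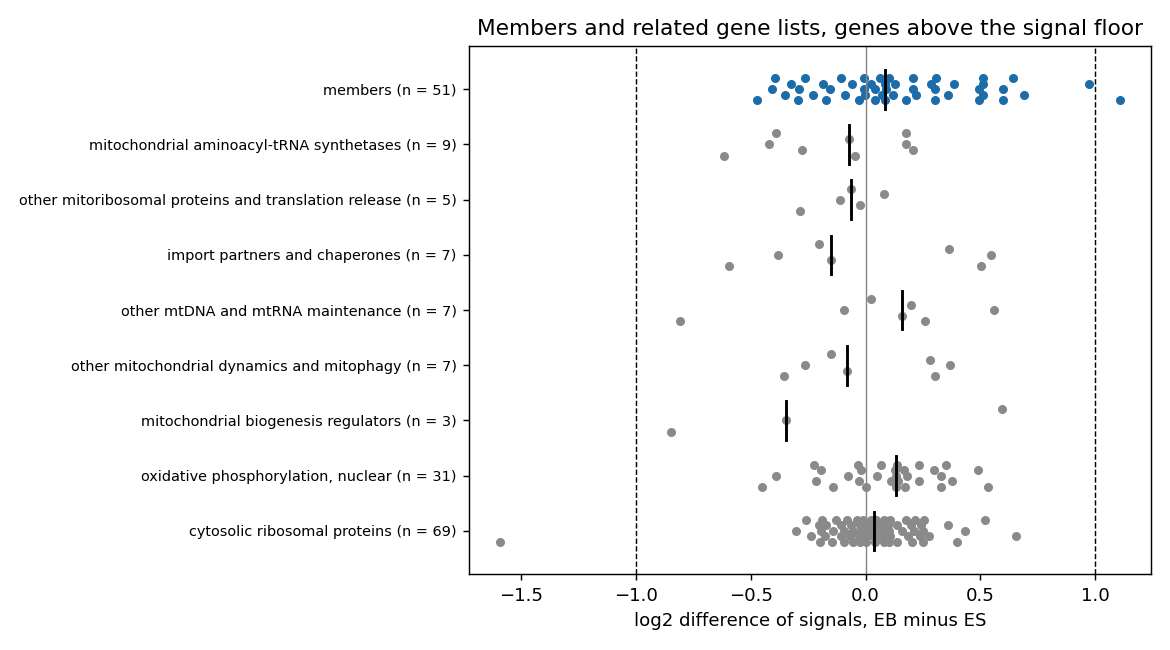
Log2 difference of normalized signals (EB minus ES, horizontal axis) of single genes above the signal floor (points) in the 51 genes described here and in related lists (rows, with the number of genes), with black bars at the medians and dashed lines at 2-fold. Medians lie between -0.34 and 0.16, with the lowest in the list of 3 biogenesis regulators.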

How the data were processed

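The authors deposited, for each sample, the signal intensity of 46643 probes. Per the file headers it was exported by BeadStudio 2.3.41 and not normalized. The sample titles, however, end in normalised_data, and they do not state whether these signals or the series value table are meant. The deposited bead spread, in signal units, carries the column label BEAD_STDEV, which names a standard deviation. It was read as a standard error because, relative to the signal, it shrank with the deposited bead count. Among probes with a signal of at least 1000 the log slopes were -0.44 and -0.47, where a standard error gives -0.5. All bead-level errors given here rest on that reading. The deposited detection score, a fraction from 0 to 1, was in the EB file. The submitters' processing notes name BeadStudio 2, RMA and limma without their roles. The series value table followed the signals in rank (Spearman 1 in both arrays), with medians of 16.7 and 16.7. It holds linear intensity whose centring is not stated by the authors, and served as an alternative. A genome build for the array was not given in the sources used here.

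Intensities were quantile normalized over both arrays without background subtraction and put on the log2 scale (Python 3.11.15, numpy 2.4.6). Normexp correction (limma 3.58.1, offset 50) was an alternative, and unsubtracted background shrinks differences of dim probes. The floor is the signal at which the EB detection score exceeded 0.99; genes above it in at least 1 array were compared, and a fold against a signal under it is given as at least. Numbers with leading zeros in the target identifiers, of at least 10000, were read as NCBI Gene numbers and matched to RefSeq symbols of GRCm38.p6 (9796 of 11857 probes). Probe sequences were not used here, so hybridisation to pseudogene copies was not tested. The brightest probe stood for a gene. Of 137 protein-coding genes under the symbol rule 75 are not analysed here. The calculation was tested on simulated data. Genes, lists and rules were chosen with earlier results of these data known. Any of the 62 genes may be named, and of other lists those past 2-fold or else the highest and lowest, except 1 gene that is not reported here. Gabpb1, Hspd1, Hspe1, Yy1, Myc and some markers were named after their values were seen.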

Additional observations from a re-analysis of the deposited data

How the results depend on the processing

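No paired analysis was possible because ES and EB were measured on 1 array apiece; leaving a sample out would end the comparison. Under 12 other settings the median difference of the 51 genes ran from 0.02 (differences centred on the median of all named genes, itself 0.06) to 0.12, and the count lower by 1.5-fold or 2-fold was 0 under each. The 1 gene higher by 2-fold, Timm21, became 2 without quantile normalization and 2 with scaling to a common median (Mrps21 joined it), and under the series value table it became 3, with Opa1 as well, where 25.7% of all named genes passed 2-fold, against 9.08% in the main values. It became 0 with the mean over all probes and 0 with the mean over probes above the floor, since the dimmer probes of Timm21 gave smaller differences. The count higher by 1.5-fold was 6, and 3 after centring, with 5 to 8 under the other settings. The share of all named genes higher by 1.5-fold moved as well. It was 24.2% with the series value table, beside 8 of the 51 genes, and 10.4% with the limit on mean signal, beside 5 of 40. The share of all named genes lower by 1.5-fold ran from 5.84% without a filter to 19.5% with the series value table. The mean over probes above the floor, centring and the limit on mean signal were chosen after the data were seen. Of the 51 genes 41 kept their sign under every setting in which they were compared, among them the 6 past 1.5-fold. The other 10 lay close to 0. For most genes several settings could not turn the sign. Filters only chose genes, setting signals to the floor left all 51 unchanged, and means over probes changed only genes with more than 1 probe. Genes with a mean signal under 1000 were left out under the limit on mean signal. Of 84 medians of role groups under other settings 2 moved by more than about 2 bead-level errors (the median error of the 51 genes), both of the translation factors (-0.49 with the series table and -0.07 with the mean over all probes, where the dim probe of Gfm2 enters). The group with Letm1 as its sole gene above the floor turned from -0.06 to 0.05 with the mean over all probes and to 0.09 without a filter. Leaving out Mfng, planned because its symbol shares a prefix, was not needed, as no named gene was Mfng. Signals near the floor limit what the 11 genes under it, and the dimmer probes, could show.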
